A study of Cocos nucifera and Zingiber officinale with 11 samples.

Results

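MIR-477, MIR-479 and MIR-530 are plant miRNA families that were each listed in fewer than 6 of the 11 small RNA libraries analysed. The members were every miRNA name that carries 1 of these family numbers, chosen by that number and by a measured level above 0 in at least 1 library. This gave 14 of the 418 names (8 of MIR-477, 2 of MIR-479 and 4 of MIR-530) and 18 of the 950 levels above 0. Since presence, level, share, rank, length and the match to the reference described the selection itself, they are given below as descriptions without a test.

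The libraries were made from edible plant-derived exosome-like nanoparticles (EPDELNs), the small vesicles pelleted by ultracentrifugation from plant juice, and each plant gave 1 library. The plants were Hami melon, tomato, pea and soybean (tissue labelled fruit) and ginger (rhizome), all ground in buffer, blueberry, grapefruit, kiwifruit, orange and pear (fruit squeezed by hand), and coconut, whose juicing is not described. The library called pea here carries labels that disagree, since it is titled Lima bean, its description says pea and its organism is Lathyrus oleraceus. With 1 market-bought sample per plant no difference between plants could be tested, and plant, tissue and juicing cannot be told apart.

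A plant miRNA is cut as a short duplex from a hairpin precursor, and 1 strand of the duplex, from the 5p or the 3p arm, is usually kept by an Argonaute protein that uses it to find target RNAs. MIR-530 is known in rice as a regulator of a PLUS3 domain gene that affects grain size, and MIR-171, which is set beside MIR-479 below, acts on GRAS (SCARECROW-like) transcription factor genes that control meristems and branching. The code before each name is the species of the miRBase reference (csi Citrus sinensis, cme Cucumis melo, mdm apple, sly tomato, vvi grape, ghr cotton, osa rice, tcc cacao), which need not be the plant that was sequenced.

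The sequence shown for a name is the most abundant one listed in that library, written 5′ to 3′ with T for U and with the seed (bases 2 to 8) in capitals. The 5p-type MIR-477 sequences are shown first, because their seeds differ through where the sequence begins.

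csi-MIR-477b, grapefruit and orange: aCTCTCCCtcaagggcttctct
mdm-MIR-477a, pear: aCTCTCCCtcaagtgcttctc
cme-MIR-477b, Hami melon: tCTCTCCCtcaaaggcttctgg
mdm-MIR-477b, Hami melon: tCTCTCCCtcaagggcttcgg
mdm-MIR-477b, pear: cACTCTCCctcaagggcttcg
sly-MIR-477-5p, tomato: tGTCTCTCcctcaagggctcc
csi-MIR-477a, grapefruit: aCCTCCCTcgaaggcttcca
csi-MIR-477a, orange: aCCTCCCTcgaaggcttccaa

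All 9 listings of these names shared the run CTCCCTC, which began at base 3 in csi-MIR-477a, at base 4 in 5 listings, at base 5 in pear mdm-MIR-477b and at base 6 in tomato. The 5 listings that began at the same place carried 1 seed, CTCTCCC, under 4 names in grapefruit, orange, Hami melon and pear. Pear mdm-MIR-477b matched csi-MIR-477b at 19 of 20 aligned positions, yet began 1 base earlier and so carried the seed ACTCTCC. The csi-MIR-477a sequences stood furthest from the rest, with 5 to 7 mismatches to every other 5p-type listing. The run was found in 14 of all 950 listed sequences (1.47%).

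The names ending in 3p are assigned to the other arm by miRBase and are shown for the pairing described below.

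vvi-MIR-477b-3p, pear: gAAGACCTtggggagagtgg
sly-MIR-477-3p, tomato: gAGTTCTTgtagggtgagaca

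MIR-479 was carried by 2 sequences that shared their first 14 bases, TGTGATATTGGTTC, and the seed GTGATAT. The shared start was found in no listed sequence of another name.

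csi-MIR-479, grapefruit and orange: tGTGATATtggttcggctcatc
ghr-MIR-479, pear: tGTGATATtggttctggctc

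The 4 MIR-530 sequences shared the run GCATTTGCACCT, also found under no other name, but began at different bases and so carried 3 seeds.

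osa-MIR-530-5p, kiwifruit: tGCATTTGcacctgcacctga
csi-MIR-530a, orange: tGCATTTGcacctgcaccttg
tcc-MIR-530a, tomato: gCATTTGCacctgcacctcct
cme-MIR-530b, Hami melon: cCTGCATTtgcacctacacct

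Levels are RPM values as deposited (reads of a name scaled to a common library total), and each is followed by a 95% exact Poisson interval that covers counting error only. Copies made by PCR are not independent molecules, so even this error may be understated. A name that a library does not list is given as below the smallest RPM listed there, which lay between 0.767 RPM in kiwifruit and 29.5 RPM in ginger. The read totals behind RPM ranged from 236959 in ginger to 6518871 in kiwifruit, and the miRNA reads from 4541 in coconut to 377989 in kiwifruit. Names treated here as tRNA- and rRNA-like, by a fixed list of family numbers, held 1.15% to 87.64% of the miRNA reads, with the highest share in grapefruit.

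The members were found in 6 libraries. Grapefruit, Hami melon and tomato listed 3 names each, orange and pear 4 each and kiwifruit 1. No member was listed in blueberry, coconut, ginger, pea or soybean. Of the 14 names, 10 (71.4%) were listed in 1 library and 4 in 2 libraries, beside 219 (54.2%) of the 404 other names in 1 library. The smallest RPM listed in the libraries without a member was 2.33 (blueberry), 3.24 (coconut), 9.5 (soybean), 14.4 (pea) and 29.5 (ginger). The ginger value came from 7 reads and need not be the lowest level that library could list. At the read total of ginger, 10 of the 18 levels would be expected to reach 5 reads, the smallest number listed in the other 10 libraries.

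**Figure D1:**
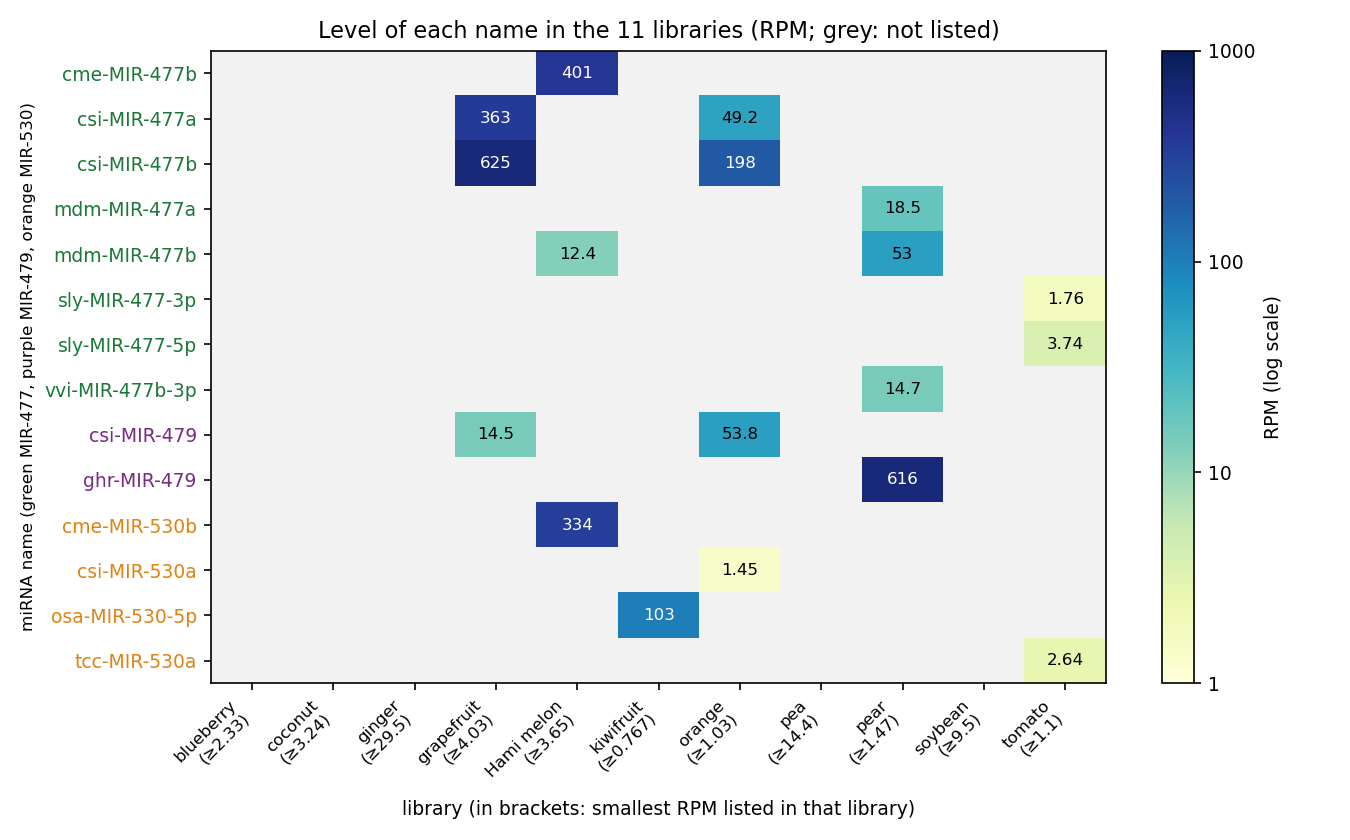
Level of each of the 14 names (rows) in each of the 11 libraries (columns), in RPM on a log colour scale with the value written in the cell. Grey cells were not listed, the smallest RPM each library lists is in brackets, and the 18 coloured cells fall in 6 libraries.

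MIR-477 was the most widely listed of the 3 families, in grapefruit, Hami melon, orange, pear and tomato. Its summed level was 988.1 RPM (933.6–1045) in grapefruit, 413 RPM (379.6–448.4) in Hami melon, 246.9 RPM (233.1–261.3) in orange, 86.24 RPM (76.65–96.7) in pear and 5.498 RPM (3.558–8.117) in tomato. No pair of neighbours in this order had overlapping intervals. As a share of a library's miRNA reads the order changed. Grapefruit held 0.4737% (Wilson interval 0.448–0.5009), below Hami melon with 0.6448% (0.594–0.7) and orange with 0.6371% (0.6021–0.6742), whose intervals overlapped. The tRNA- and rRNA-like names held 87.64% of the miRNA reads in grapefruit, 14.26% in Hami melon and 4.09% in orange. Without them csi-MIR-477b alone held 2.42% in grapefruit. The highest MIR-477 name then held 0.729% in Hami melon and 0.532% in orange.

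In both citrus libraries csi-MIR-477b was the higher of the pair of MIR-477 names. It reached 624.9 RPM (581.7–670.5) in grapefruit, rank 12 of 65 listed miRNAs, and 197.7 RPM (185.3–210.6) in orange, rank 21 of 111. csi-MIR-477a reached 363.2 RPM (330.5–398.3) in grapefruit, rank 18, and 49.21 RPM (43.15–55.87) in orange, rank 37. The 2 names were therefore closer to each other in grapefruit, with 1.721 reads of csi-MIR-477b per read of csi-MIR-477a (1.53–1.937), than in orange, with 4.017 (3.482–4.649), and these intervals of the read ratio did not overlap. Both names matched their references without a mismatch, and the csi-MIR-477b sequence was the same in both libraries, beginning 1 base before its reference. The csi-MIR-477a sequence was 1 base shorter than the reference at the 3′ end in grapefruit and that of the reference in orange.

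In Hami melon most MIR-477 reads were under its own species' name, cme-MIR-477b, at 400.6 RPM (367.7–435.5), rank 12 of 80. The apple name mdm-MIR-477b had 12.4 RPM (7.225–19.86) there, rank 51, from 17 reads. The ratio of the 2 names was 32.29 reads (19.98–55.84), and their listed sequences differed at 2 of 21 aligned positions. Against the apple reference the Hami melon sequence carried A1T and A21G (reference base, position in the reference from 1 at its 5′ end, listed base).

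In pear mdm-MIR-477b was the highest MIR-477 name, with 52.98 RPM (45.52–61.31), rank 37 of 95. mdm-MIR-477a had 18.54 RPM (14.25–23.72), rank 47, with the change A14T, and vvi-MIR-477b-3p had 14.72 RPM (10.92–19.4), rank 50, with T6A and T8C. The levels of these last 2 names had overlapping intervals. Pear was thus a library that listed both arms of MIR-477, with 3.6 reads of mdm-MIR-477b per read of vvi-MIR-477b-3p (2.619–5.029).

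Tomato also listed both arms, at low levels. sly-MIR-477-5p had 3.739 RPM (2.178–5.986) from 17 reads and sly-MIR-477-3p had 1.759 RPM (0.7596–3.467) from 8 reads, at ranks 60 and 82 of 118. The ratio of the arms was 2.125 (0.8692–5.689), so a difference between them was not detectable at this depth. The level of sly-MIR-477-3p lay under the smallest RPM listed in 7 of the 10 other libraries, and that of sly-MIR-477-5p in 4 of 10.

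**Figure D2:**
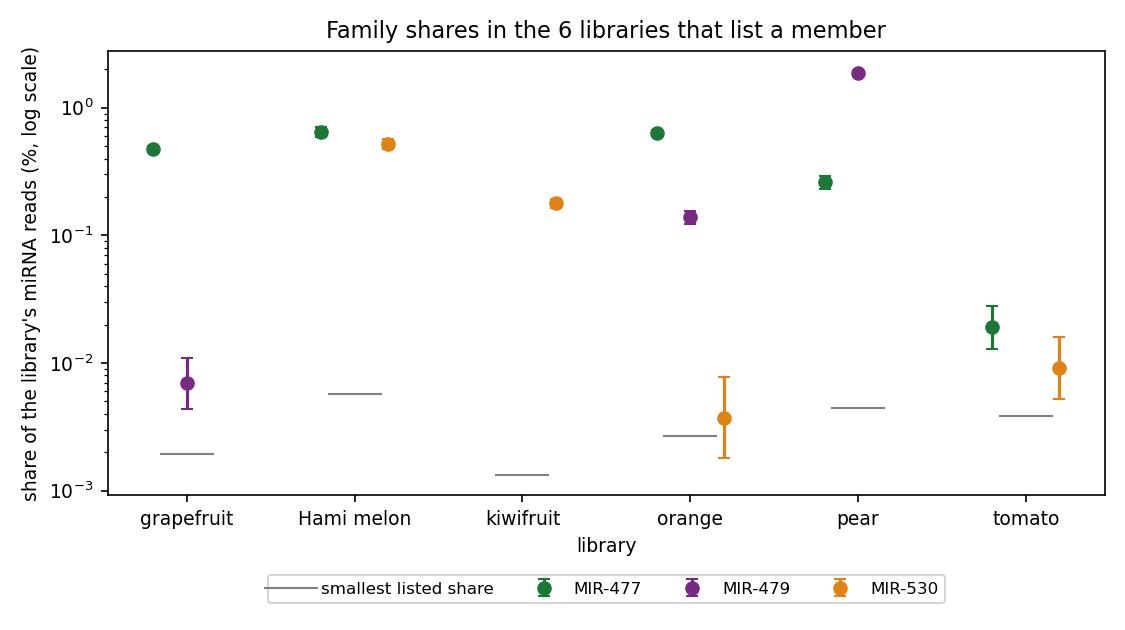
Share of a library's miRNA reads (percent, log scale) held by MIR-477, MIR-479 and MIR-530 in the 6 libraries that list a member, with 95% Wilson intervals for counting error; grey marks are the smallest share each library lists. MIR-479 in pear is the highest point at 1.86% and MIR-530 in orange the lowest at 0.003735%.

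MIR-479 was listed in grapefruit, orange and pear, and its level in pear was the highest share of all miRNA reads held by a member. ghr-MIR-479 had 2092 reads in pear, or 615.7 RPM (589.6–642.7), rank 14 of 95 and 1.86% of the miRNA reads (1.783–1.941). csi-MIR-479 had 14.5 RPM (8.591–22.91) in grapefruit, rank 47, and 53.76 RPM (47.42–60.7) in orange, rank 36, with none of the 3 intervals overlapping. By RPM, csi-MIR-477b in grapefruit was level with it, the intervals overlapping. Without the tRNA- and rRNA-like names csi-MIR-477b in grapefruit held the higher share, 2.42% (2.26–2.6), and ghr-MIR-479 in pear 2.07% (1.99–2.16). The csi-MIR-479 sequence was that of its reference in both citrus libraries. The pear sequence was the only member beyond 2 mismatches of its reference when no gap was allowed, with C1T, G15T, C17G, T18C, C19T and A20C. With gaps allowed it took 2 edits from the cotton reference and 1 edit from csi-MIR-479, against 5 mismatches to csi-MIR-479 without gaps.

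MIR-530 was listed under a different name in each of its 4 libraries. cme-MIR-530b in Hami melon had 334.2 RPM (304.3–366.2), rank 14 of 80, and osa-MIR-530-5p in kiwifruit, the only member listed there, had 103.1 RPM (95.44–111.2), rank 20 of 117. The other 2 rested on few reads. tcc-MIR-530a in tomato had 2.639 RPM (1.364–4.61) from 12 reads, rank 74 of 118, and csi-MIR-530a in orange had 1.447 RPM (0.5819–2.982) from 7 reads, rank 103 of 111. The intervals of these 2 overlapped, and their levels lay under the smallest RPM listed in 6 and 8 of the 10 other libraries. Grapefruit, the other citrus library, lists nothing under 4.03 RPM and so could not have shown a level like that of orange. The kiwifruit sequence differed from the rice reference by A20G. Hami melon began 2 bases before its reference and tomato 1 base after it, both without a mismatch.

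**Figure D3:**
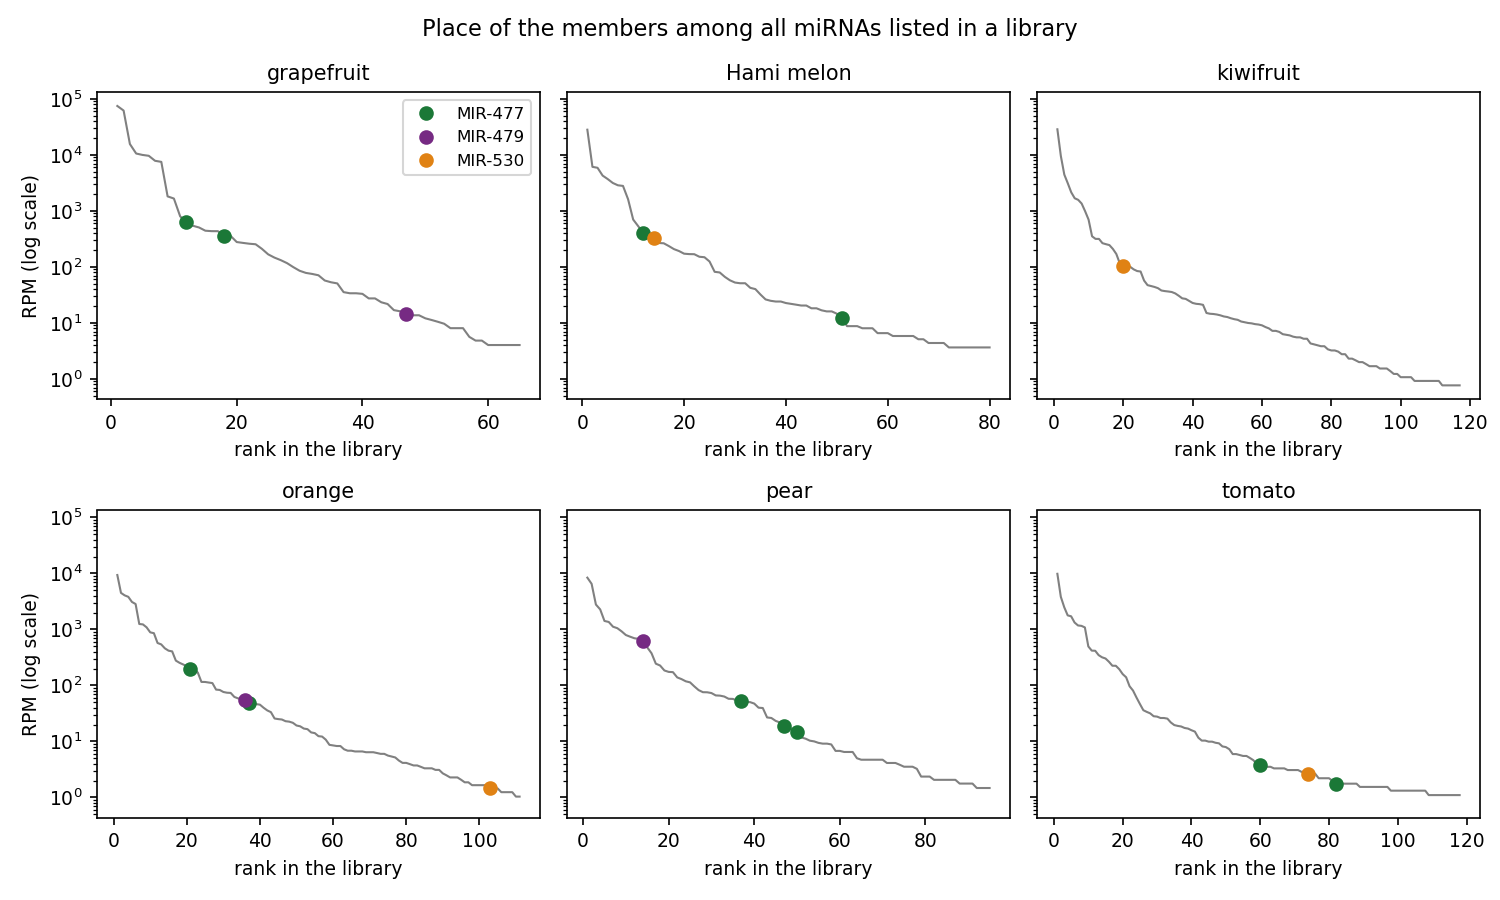
RPM (log scale) of all miRNAs listed in each of the 6 libraries against their rank (grey line), with the members marked by family. ghr-MIR-479 in pear (rank 14), cme-MIR-477b and cme-MIR-530b in Hami melon (ranks 12 and 14), both MIR-477 names in grapefruit (ranks 12 and 18) and osa-MIR-530-5p in kiwifruit (rank 20) stand in the upper part of their lists, and the 3 tomato members at ranks 60 to 82 stand in the lower part.

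The members together held 0.02826% (0.02051–0.03895) of the miRNA reads in tomato, 0.1778% (0.1649–0.1917) in kiwifruit, 0.4807% (0.4548–0.5081) in grapefruit, 0.7796% (0.7408–0.8204) in orange, 1.167% (1.098–1.24) in Hami melon and 2.121% (2.038–2.206) in pear. Without the tRNA- and rRNA-like names the grapefruit share was 3.89%, above that of pear at 2.36%.

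In the citrus pair 3 names were listed in both libraries, and in Hami melon and pear 1 name, which allowed a ratio between libraries but not between plants. csi-MIR-477a had 7.381 times the RPM in grapefruit that it had in orange (6.294–8.673) and csi-MIR-477b 3.162 times (2.872–3.479). csi-MIR-479 went the other way at 0.2697 times (0.1573–0.4347). Of the 52 names listed in both, 32.7% were at least 2-fold higher and 44.2% at least 2-fold lower in grapefruit, and the median was 0.9696. Ratios of at least 2-fold were thus common, but every tRNA- and rRNA-like name among the 52 was among the higher ones. On the scale of shares the median ratio was 0.1801. There csi-MIR-477a was at 1.371 and csi-MIR-479 at 0.05009, and csi-MIR-477b turned to 0.5873, that is lower in grapefruit. The tRNA- and rRNA-like names, which hold 87.64% of the miRNA reads in grapefruit and 4.09% in orange, moved with this turn. Without them the share ratios were 10.64, 4.558 and 0.3887 for csi-MIR-477a, csi-MIR-477b and csi-MIR-479, and the median RPM ratio of the shared names was 0.4848. Summed over MIR-477 the ratio was 4.003 (3.693–4.338) by RPM and, in the other direction, 0.7435 (0.686–0.8059) on shares of all miRNA reads. By RPM ratio, from the highest, csi-MIR-477a ranked 10, csi-MIR-477b 14 and csi-MIR-479 39 of the 52 names. The names above csi-MIR-477a were tRNA- and rRNA-like except gma-MIR-156n, at 50.74 RPM in grapefruit and 5.996 RPM in orange.

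**Figure D4:**
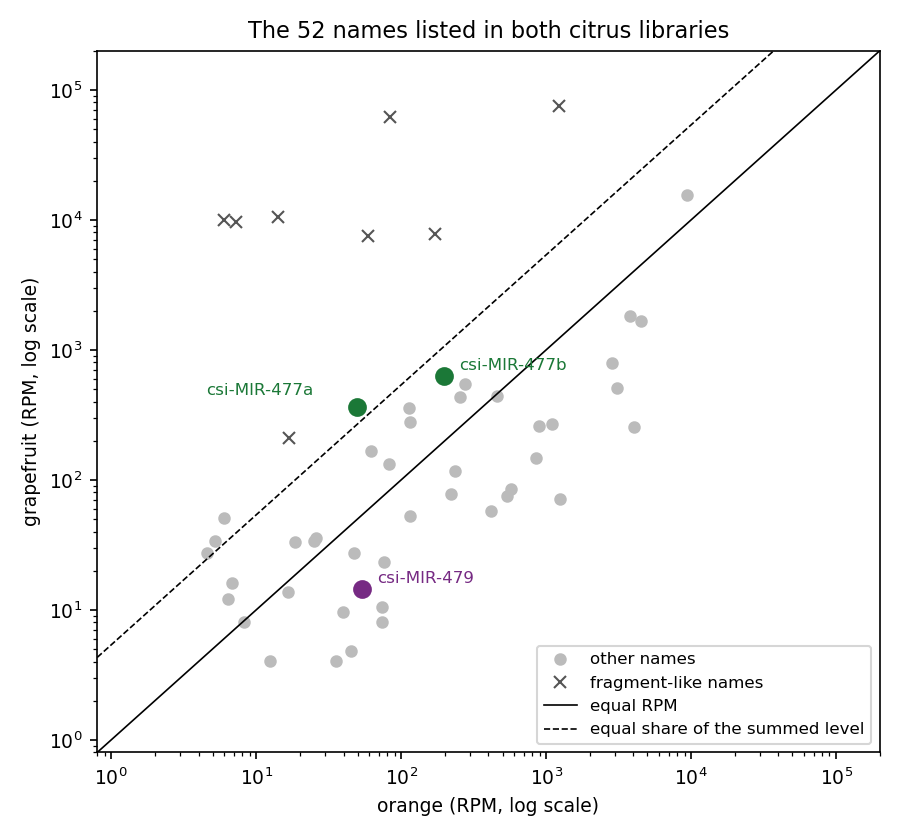
RPM in grapefruit (vertical) against orange (horizontal), both on log scales, for the 52 names listed in both libraries. csi-MIR-477a and csi-MIR-477b lie above the solid line of equal RPM and on opposite sides of the dashed line of equal share, csi-MIR-479 lies below both, and the crosses are the tRNA- and rRNA-like names.

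In Hami melon mdm-MIR-477b was at 0.2341 times its RPM in pear (0.1334–0.3855). The libraries list different sequences under this name, with the seed CTCTCCC in Hami melon and ACTCTCC in pear. Of the 30 names listed in both, 43.3% were at least 2-fold higher and 23.3% at least 2-fold lower in Hami melon, with a median of 1.303. Summed over MIR-477 the direction turned, at 4.789 times (4.151–5.533), because cme-MIR-477b was listed in Hami melon alone.

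A listed name was not the whole of a sequence family. csi-MIR-473 carried a sequence without a mismatch to pear mdm-MIR-477b over 20 positions, with the seed CTCTCCC of MIR-477, and was listed in the citrus libraries beside the MIR-477 names.

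csi-MIR-473, grapefruit: aCTCTCCCtcaagggcttcgc
csi-MIR-473, orange: aCTCTCCCtcaagggcttcgcc

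Its level was 543.6 RPM (503.4–586.2) in grapefruit, between those of csi-MIR-477b and csi-MIR-477a, and 277.3 RPM (262.6–292.5) in orange, above both. In kiwifruit, which lists no MIR-477, ptc-MIR-473a-5p matched pear mdm-MIR-477b at 19 of 20 positions but rested on 5 reads (0.767 RPM, 0.249–1.79). gra-MIR-1446 contained the CTCCCTC run too, at 16.11 RPM (9.838–24.88) in grapefruit and 6.823 RPM (4.697–9.582) in orange, with 1 mismatch over 17 positions to cme-MIR-477b. ptc-MIR-171l-5p in kiwifruit, at 3.835 RPM (2.482–5.661), carried the MIR-479 seed and had 3 mismatches over 22 positions to csi-MIR-479. In all 4 other names and 6 listings had a sequence within 3 mismatches over at least 16 positions of a member. The moss names ppt-MIR-1030d and ppt-MIR-1030i came within that limit only by their references, and their listed sequences of 14 to 16 nt did not hold the MIR-530 run.

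The listed MIR-479 sequences were compared for antisense pairing with the MIR-171 sequences of the same library, shown next. No hairpin precursor was examined, so whether any of them come from 1 duplex was not tested. The sequences are shown 5′ to 3′, so that the start of one faces the end of the other.

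gma-MIR-171k-3p, grapefruit and orange: tTGAGCCGcgccaatatcacg
mtr-MIR-171h, grapefruit and orange: cGAGCCGAatcaatatcactc
mtr-MIR-171h, pear: cGAGCCGAaccaatatcact

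csi-MIR-479 formed 19 base pairs with gma-MIR-171k-3p, of which 2 were G:T, and left 2 positions unpaired, the best pairing among all 64 other sequences of grapefruit and all 110 of orange. The next best in both was mtr-MIR-171h, with 18 pairs and 2 unpaired. ghr-MIR-479 formed 15 pairs with the pear mtr-MIR-171h when no gap was allowed and 5 positions stayed unpaired, behind mdm-MIR-1511. With 1 base of the MIR-479 strand left out it formed 18 pairs with 1 unpaired, the best of 94, but the share of other listings that pair as closely in this way was not computed. Without gaps, pairing about as close as that of csi-MIR-479 was about as frequent among other listings as among all member families together. In 2 of the 18 member listings (11.1%) and 93 of the 932 others (9.98%) a partner's pairs exceeded the unpaired positions by at least 16. Both of these member listings were csi-MIR-479, with the same sequence in grapefruit and orange. A share for MIR-479 alone was not set against the others. At a limit of 10 the shares were 66.7% of the members and 53.4% of the others. At limits of 12 and 14 the members were at 11.1%, against 29.3% and 19.5% of the others. The others are all non-member listings, so they include the MIR-171 partners of csi-MIR-479 and are not a set of unrelated names.

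The read ratio of MIR-479 to a MIR-171 name differed between the libraries and depended on which MIR-171 name was taken, of which orange listed 6. These 6 were not alike as partners of csi-MIR-479. By pairing without gaps gma-MIR-171j-5p, a 5p name, ranked 70 of 110, and vvi-MIR-171h was listed with a sequence of 15 nt. In grapefruit csi-MIR-479 had 18 reads and gma-MIR-171k-3p 164, a ratio of 0.1098 (0.06346–0.179). In orange they had 260 and 401 reads, a ratio of 0.6484 (0.5525–0.7598). Relative to mtr-MIR-171h the ratio was 1.2 (0.5711–2.558) in grapefruit and 8.387 (5.766–12.6) in orange. In pear ghr-MIR-479 had 2092 reads and mtr-MIR-171h, the only MIR-171 name listed there, 385 reads, a ratio of 5.434 (4.872–6.073). MIR-170 and MIR-171 names were listed in 10 libraries, in 7 of them without MIR-479.

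**Figure D5:**
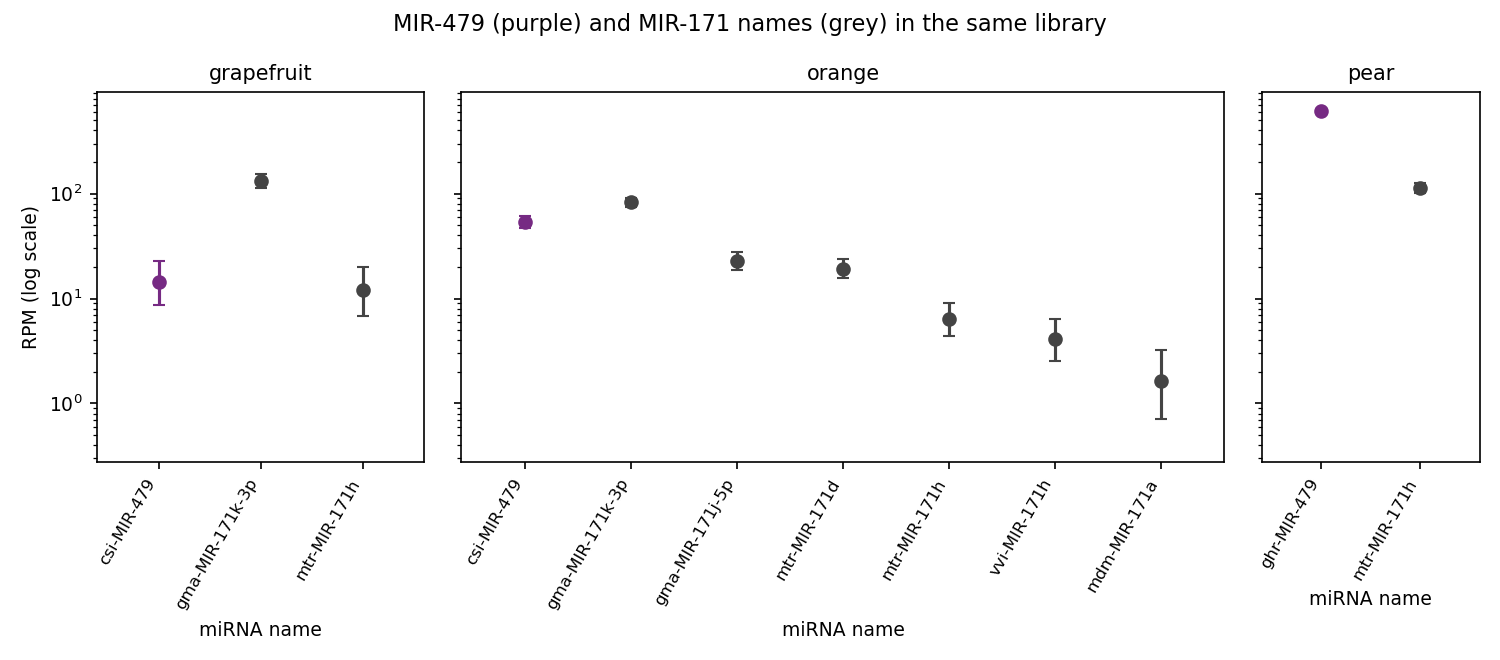
RPM (log scale) of MIR-479 (purple) and of each MIR-171 name (dark grey) in grapefruit, orange and pear, with 95% Poisson intervals for counting error. MIR-479 lies above the MIR-171 name in pear (615.7 against 113.3 RPM) and below gma-MIR-171k-3p in grapefruit (14.5 against 132.1 RPM) and orange (53.76 against 82.91 RPM). In grapefruit it lies close to mtr-MIR-171h (12.08 RPM), with overlapping intervals. In orange it lies above all other MIR-171 names, the highest of which is gma-MIR-171j-5p (22.95 RPM).

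The names of the 2 arms of MIR-477 paired less closely without gaps, and for some of them a name of another family paired as closely. In tomato sly-MIR-477-5p and sly-MIR-477-3p formed 16 pairs with 5 unpaired positions, and 19 pairs with 1 unpaired when 1 base was left out. In the same library mtr-MIR-159a formed 15 pairs with 4 unpaired with sly-MIR-477-3p. This tied with the 5p name by pairs minus unpaired positions, but 7 of its pairs were G:T, against 3 for the 5p name. In pear mdm-MIR-477b and vvi-MIR-477b-3p formed 15 pairs with 5 unpaired, and 18 with 1 unpaired when 1 base was left out. There ath-MIR-395a, a name of another family, tied with the 3p name at 15 pairs with 5 unpaired with mdm-MIR-477b. Of its pairs 4 were G:T, against 3 for the 3p name. In Hami melon ath-MIR-395a formed 16 pairs with 5 unpaired with mdm-MIR-477b, as many as the tomato arms. For sly-MIR-477-5p, mdm-MIR-477a and vvi-MIR-477b-3p the best partner without gaps was a name of the other arm. Without gaps the pairing therefore set the arms apart from other names in some cases only. With 1 base left out, a name of the other arm ranked first for each arm name in both libraries. For mdm-MIR-477a it was level with ath-MIR-395a. The share of other listings that pair as closely in this way was not computed.

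All 18 member listings were 20 to 22 nt long, with 3 of 20 nt, 10 of 21 nt and 5 of 22 nt, whereas 243 of the 932 other listings (26.1%) were shorter than 20 nt. The first base was T in 8 of the 18 (44.4%), beside 513 of the 932 others (55%), and A in 5 (27.8%), beside 76 (8.15%). The 5 with A all belonged to MIR-477. In 8 of the 18 (44.4%) the listed sequence began at another base than the reference, beside 286 others (30.7%). The 11 listings under a reference of the plant's own genus had no mismatch, and 2 of the 7 under a reference of another genus had none. Among the other names the shares without a mismatch were 94.3% of 106 and 59.9% of 826 listings, so this was a feature of the whole table.

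The families whose libraries were most like those of a member family were found by the Jaccard index (libraries shared over libraries listing either). For MIR-477 these were MIR-399 (0.714), MIR-5059 (0.667) and MIR-172 (0.667). For MIR-479 they were MIR-472, MIR-3952 and MIR-1446 (0.667 each), which were listed in grapefruit and orange. For MIR-530 they were MIR-2111 (0.75), MIR-5077 (0.667) and MIR-858 (0.6). Across the 11 libraries, the logarithm of the share of MIR-530 had a Pearson correlation of 0.927 with that of MIR-2111, a description over points that are mostly unlisted values. This was the highest among the pairs named. The others ran from 0.366 (MIR-477 with MIR-172) to 0.7 (MIR-477 with MIR-399). The same correlation broke ties of the index when the families were chosen.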

How the data were processed

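EPDELN small RNA of 11 plants was sequenced, 1 library each. After read filtering, the authors used MIRPIPE and the plant entries of miRBase 21 (no more than 2 mismatches) and deposited RPM values with the most abundant sequence of each name. The aligner settings and the reads behind the RPM total are not given in the sources used here. No genome was used, so genome positions are not given. All 950 values and sequences were equal in the merged table and the single-library files.

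In each library the RPM values were whole multiples of a smallest step (within 0.01 read), which gave the reads and the read total. The smallest level listed was 5 reads in 10 libraries and 7 in ginger. Shares were taken of the miRNA reads of a library. Intervals (95%) were exact Poisson for RPM, exact conditional binomial for read ratios and Wilson for shares. No test was made, since no plant had a replicate. Listed sequences were slid along references without gaps, and pairing counted Watson-Crick and G:T pairs. The tRNA- and rRNA-like names are 11 family numbers. The steps were tested on simulated data. Statistics used scipy 1.17.1 under Python 3.11.15, tables pandas 2.3.3 with numpy 2.4.6, and figures matplotlib 3.10.9.

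Every member was named. Members, lists and alternatives were chosen with earlier results of these data known. Alternatives changed the detection limit, scale, names counted and sequence filters.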

Additional observations from a re-analysis of the deposited data

How the results depend on the processing

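Of 96 alternative values, 64 stayed within the limits set (1.5 times for a count, the 95% interval for a share or ratio), 30 moved past them and 2 reversed. Within those limits the names listed ranged between 12 and 20, the libraries listing MIR-479 between 2 and 4 and those listing MIR-530 between 3 and 6. The 20 names and the 6 libraries for MIR-530 include ppt-MIR-1030 names that are alike by reference only. Adding only names whose listed sequence is alike gave 18 names and 4 libraries for MIR-530. Counting only levels of at least 29.5 RPM, which every library could have listed, left 8 of the 14 names, and MIR-530 in 2 of 4 libraries. The share held by the members depended on what it was taken of. Without the tRNA- and rRNA-like names it was 3.89% in grapefruit, 1.36% in Hami melon, 2.36% in pear and 0.0851% in tomato. Among sequences of 18 nt or more it was 0.862%, 1.41%, 2.43% and 0.0498% in the same libraries. As a share of the number of names it was 4.62% in grapefruit, 3.75% in Hami melon, 0.855% in kiwifruit, 3.6% in orange, 4.21% in pear and 2.54% in tomato. With names of like sequence added it was 0.749% in grapefruit, 1.29% in Hami melon, 1.51% in orange and 0.0626% in tomato. Adding only names whose listed sequence is alike, an alternative chosen after seeing the data, gave 0.749% in grapefruit and 1.51% in orange and left the other libraries within their intervals. The grapefruit over orange ratio of csi-MIR-477b reversed to 0.587 on shares, and was 4.56 without the tRNA- and rRNA-like names. That of csi-MIR-477a was 1.37 and 10.6, that of csi-MIR-479 was 0.0501 on shares, and MIR-477 summed gave 4 by RPM, against 0.7435 on shares. The Hami melon over pear ratio of mdm-MIR-477b was 0.121 on shares and 0.127 without the tRNA- and rRNA-like names, and reversed to 4.79 when MIR-477 was summed, since cme-MIR-477b then enters. For the other values that moved the cause was not tested. No paired analysis was possible because each plant had 1 library, and no replicate could be left out. With 5 reads as the usual smallest level listed, an unlisted name may be present below it.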
